A study of Arabidopsis thaliana with 6 samples.

Results

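Transcript levels of transcription factor (TF) genes were compared between freshly isolated Col-0 explants (0 d) and the same kind of explant after 5 d of embryogenic culture. The explants were immature zygotic embryos of wild-type Arabidopsis thaliana at the late cotyledonary stage, taken from siliques 10 to 12 days after pollination. The cultures were kept on solid medium with 5 µM 2,4-D, a synthetic auxin that induces somatic embryos directly on such explants. The labels call the Col-0 material highly embryogenic, the 0 d tissue competent for the embryogenic transition, and the 5 d tissue subjected to induction. The series also holds Col-0 at 10 d and the tanmei mutant (tan1-2), labelled non-embryogenic and impaired in somatic embryogenesis, at 0, 5 and 10 d on the same medium. Its 6 groups were measured by quantitative RT-PCR, and 1 mean threshold cycle (Ct) per gene and group was deposited. A whole explant was sampled each time, so a change in the share of a cell type cannot be told apart from a change in transcript per cell.

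A lower Ct means more transcript, with 1 cycle close to a doubling. The change of a gene is the Ct at 0 d minus the Ct at 5 d, less the median of that difference over its plate, and is given on the log2 scale. The table held 1880 rows in 5 consecutive plates of equal size, and a row was kept where its Ct was below 35 at 0 d or at 5 d, with an empty Ct set to 40. This kept 1661 rows. Because a group has a single deposited mean, no replicate spread, standard deviation or test could be had for any change below. "Higher" and "lower" are therefore used of rows past a stated fold, and no difference was checked against replicate error.

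Somatic embryogenesis is the formation of embryos from cells that are not the zygote. In Arabidopsis it depends on auxin and draws on regulators that also act in zygotic embryos, among them B3-domain factors (the ABI3/VP1 family) and AP2-type factors such as BABY BOOM and the PLETHORA proteins. The AP2/EREBP family also holds the large ERF and DREB branches. ERF genes are known for ethylene, jasmonate and wound responses and for organ initiation, DREB genes for cold, drought and heat responses.

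At 5 d, 551 rows were at least 2-fold higher than in the explants (33.2% of the kept rows) and 476 were at least 2-fold lower (28.7%). At least 10-fold, 236 rows were higher (14.2%) and 122 were lower (7.34%). The remaining 634 rows lay within 2-fold. The middle part of the distribution, from the lower to the upper quartile, ran from -1.22 to 1.78. Centring on each plate's median sets as many rows of a plate above 0 as below, so the near balance of 2-fold calls follows in part from the method, while the excess of 10-fold rises over 10-fold falls is a difference in the tails. That excess was present on each plate, from 53 against 46 rows on plate 1 to 70 against 15 on plate 5. In the plot of Ct values, the rises are the points above the line of equal Ct, and they spread most among rows with a high Ct in the explants.

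**Figure D1:**
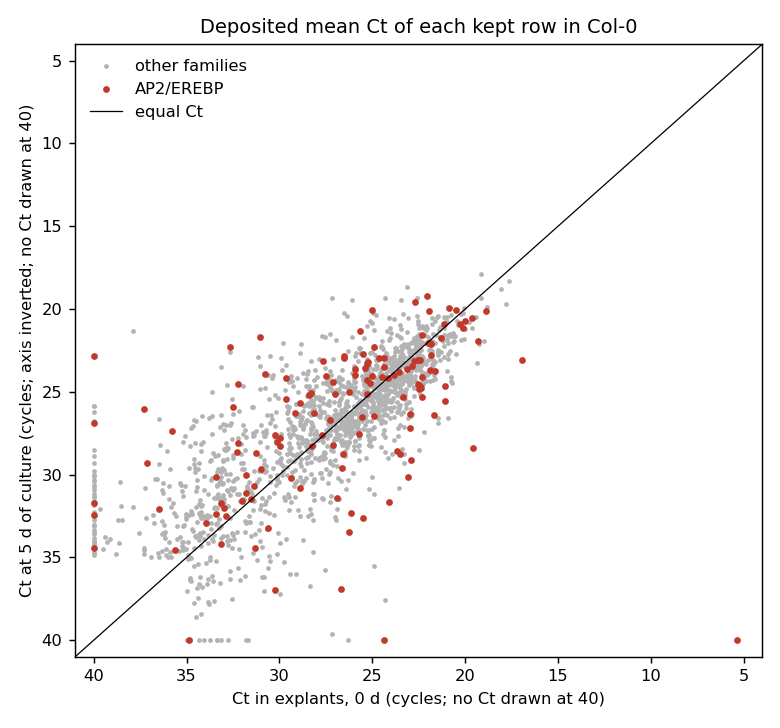
Each point is the deposited mean Ct of 1 kept row in Col-0 explants (x axis) and at 5 d (y axis), in cycles, both axes inverted so that more transcript lies up and right, with a missing Ct drawn at 40. Of the 1661 rows, 551 were at least 2-fold higher and 476 at least 2-fold lower at 5 d after plate centring, and the AP2/EREBP point at the far right is HRD, with a Ct of 5.36 in the explants.

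Detection changed mainly in the direction of gain. No Ct, or a Ct of 40, was listed in the explants for 43 rows that were below 35 at 5 d, and the reverse was listed for 17 rows. Rows with little transcript in the explants were also those most often higher at 5 d. Where the explant Ct was below 22, the median change of 113 rows was -1.51, and 76 of them were at least 2-fold lower. Between 22 and 26 the median of 622 rows was -0.52, between 26 and 30 that of 447 rows was 0.39, and between 30 and 35 that of 354 rows was 1.27. The 125 rows at 35 or above had a median of 5.45, but these were kept only through a Ct below 35 at 5 d and so had to be higher. The change is computed from the explant Ct, so the band and the change share that value, and its part in this gradient was not tested. With the rows grouped by the mean Ct of both times, the median went from -0.85 over 98 rows below 22 to 1.33 over 347 rows between 30 and 35. Grouped by the Ct at 5 d, rows below 30 showed no such gradient, with medians of -0.01 below 22, -0.02 between 22 and 26 and 0.03 between 26 and 30, and the median between 30 and 35 was 0.90.

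The families with at least 60 kept rows were 9, and together they held 914 rows. AP2/EREBP had a wide spread, with quartiles at -2.66 and 1.83 around a median of -0.38 over 135 kept rows. Of these, 47 were at least 2-fold higher and 56 at least 2-fold lower, and 20 and 26 were at least 10-fold higher and lower. The 10-fold falls made 19.3% of the AP2/EREBP rows, beside 6.29% of the 1526 kept rows of all other families and 9.30% of the 215 other rows on the same plate. All AP2/EREBP rows lay on plate 1, whose median is partly theirs. Without centring the AP2/EREBP median was 0.41, so that the direction of this median depends on the scaling, with 58 rows at least 2-fold higher and 42 lower.

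NAC factors, a plant-specific family active in stress, senescence and meristem boundaries, had the largest share of 10-fold rises among the 9 families. Of 96 NAC rows, 27 were at least 10-fold higher (28.1%) and 4 at least 10-fold lower (4.17%), with a median of 0.43, beside 14.2% and 7.34% of all kept rows. Rows with an explant Ct of 35 or above were kept only through 5 d, so the filter set their direction. They made 88 of the 236 10-fold rises over all rows, and the shares of each family include such rows. Of the NAC rises, 6 had no Ct below 40 in the explants. MYB had 25 of 127 rows at least 10-fold higher (19.7%) and 6 lower (4.72%), with a median of 0.39. Of the MYB rises, 5 had no Ct below 40 in the explants, and others started from a Ct of 35 or above. The filter set the direction of such rows, so no MYB excess over all rows is read from this share. WRKY factors, known mostly from defence responses, had 14 of 68 rows at least 10-fold higher (20.6%) and 3 lower (4.41%), although the WRKY median was -0.25. That median was 0.73 without centring, and its sign therefore also depends on the scaling. All WRKY rows and 72 of the NAC rows lay on plate 5. There, 70 of 356 kept rows were at least 10-fold higher and 15 lower, so the WRKY shares were near those of the plate. The MYB median was 0.03 without centring and -0.15 with 1 median taken over all plates. Plate 4, which held all MYB and MADS rows, had 43 of 280 kept rows at least 10-fold higher and 24 lower. Homeobox (HB) genes had 11 of 86 rows at least 10-fold higher (12.8%) and 1 lower (1.16%), and C2H2 zinc finger genes 18 of 123 higher (14.6%) and 8 lower (6.50%). The shares of rises in both were near the 14.2% of all rows. All HB rows lay on plate 3, where 30 of 343 kept rows were at least 10-fold higher and 11 lower. The HB share of rises was thus above that of its plate. The medians of both, 0.06 and 0.20, fell below 0 without centring (-0.17 and -0.12). For bHLH the counts were 24 and 18 of 144 rows (16.7% and 12.5%). Of 67 bZIP rows, 6 were at least 10-fold higher (8.96%) and 3 lower (4.48%) around the lowest median of the 9 families, -0.55. MADS genes, known best from floral organ identity, had 3 of 68 rows at least 10-fold higher (4.41%) and 9 lower (13.2%). AP2/EREBP and MADS were thus the families with more 10-fold falls than rises after plate centring, as the plot by family shows. Without centring this held for MADS (3 higher and 11 lower) and not for AP2/EREBP (24 higher and 21 lower).

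**Figure D2:**
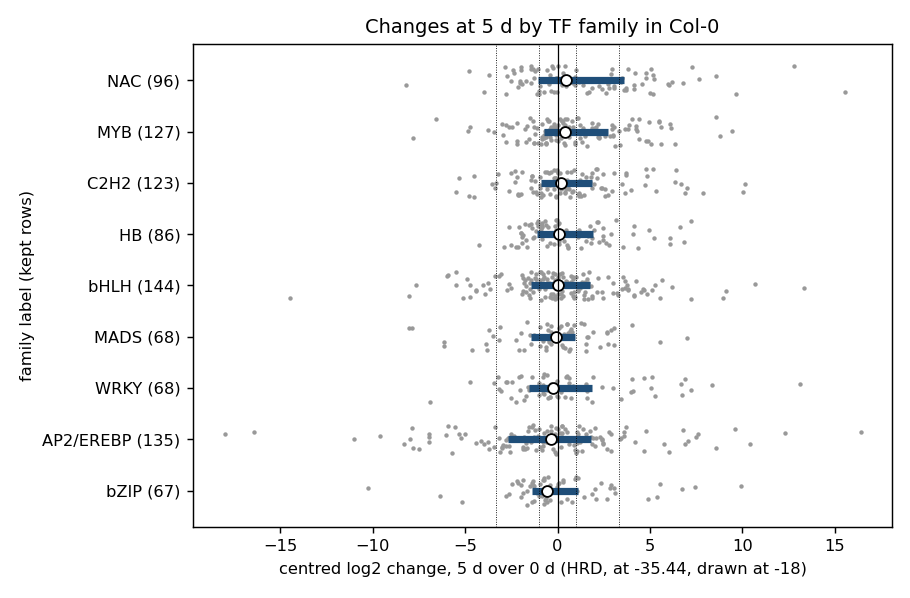
Each grey point is the centred log2 change (5 d over 0 d, x axis) of 1 kept row in the 9 families with at least 60 kept rows (y axis). Bars run from the lower to the upper quartile, open circles mark the median, and dotted lines mark 2-fold and 10-fold. AP2/EREBP has quartiles at -2.66 and 1.83, and NAC has 27 of 96 rows at least 10-fold higher.

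Single genes are named in the AP2/EREBP and ABI3/VP1 families alone, and by their code where the annotation used here gives no name. Of 159 rows in both families, 148 were kept. The 22 AP2/EREBP rows with a code after AT5G25190 are counted with their family and not named, because their values did not sit with their codes in a check of row identity. The largest rise and the largest fall are described first, then the genes by branch.

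ERF115, which in roots drives division of stem cell organizer cells and regeneration after wounding, had the largest rise of both families. It had no Ct below 40 in the explants and a Ct of 22.81 at 5 d and 22.86 at 10 d. Its change was at least 16.39. PUCHI, needed for orderly early divisions of lateral root primordia, was likewise without signal in the explants and had a Ct of 26.89 at 5 d, a change of at least 12.31. LEP, a close relative of PUCHI, went from a Ct of 37.26 to 26.05, a change of 10.42. In tanmei, set against its own explants, the changes of these genes at 5 d were 9.80 for ERF115, at least 14.36 for PUCHI and 7.81 for LEP. All 3 were thus more than 10-fold higher in both genotypes.

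Next in size were AT1G12890, from a Ct of 31.07 to 21.70 (8.58), and AT4G18450, from 35.77 to 27.38 (7.60). ESE2 and SHN2 had no Ct below 40 in the explants and Ct values of 31.74 and 32.44 at 5 d, which put their changes at 7.47 and 6.76 or more. SHN2 belongs to the SHINE genes, known for activating cuticular wax and cutin synthesis. SHN1 did not reach a Ct of 35 at either time (36.14 at 5 d) and was not kept. AT2G22200 changed by 7.08, AT1G63040 by 6.92 and AT2G33710 by 5.78. EDF3, a RAV-type factor named for its ethylene response, went from 30.78 to 23.94 (6.05, or 66.4-fold).

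The fall of HRD was the largest on paper and the least certain. Its deposited Ct in the explants was 5.36, while the next lowest Ct among all rows of that column was 16.92, and it had no Ct at 5 d. The resulting change of -35.44 is not a usable size. RRTF1 (redox responsive, induced by reactive oxygen) had a Ct of 24.39 in the explants and none below 40 at 5 d, a change of -16.40 or lower. AT5G21960 went from 26.67 to 36.88 (-11.01). RAP2.6, a stress- and wound-responsive ERF, went from 19.56 to 28.39 (-9.63) and stayed at 27.73 at 10 d. ERF022 went from 24.10 to 31.63 (-8.32), whereas in tanmei its explants already had a Ct of 30.08 and the change was -1.24. ERF13, an ethylene-responsive factor, went from 22.95 to 29.09 (-6.94). In tanmei at 5 d, against its own explants, RRTF1 (-6.73), AT5G21960 (-4.83), RAP2.6 (-6.33) and ERF13 (-3.70) were also more than 10-fold lower.

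**Figure D3:**
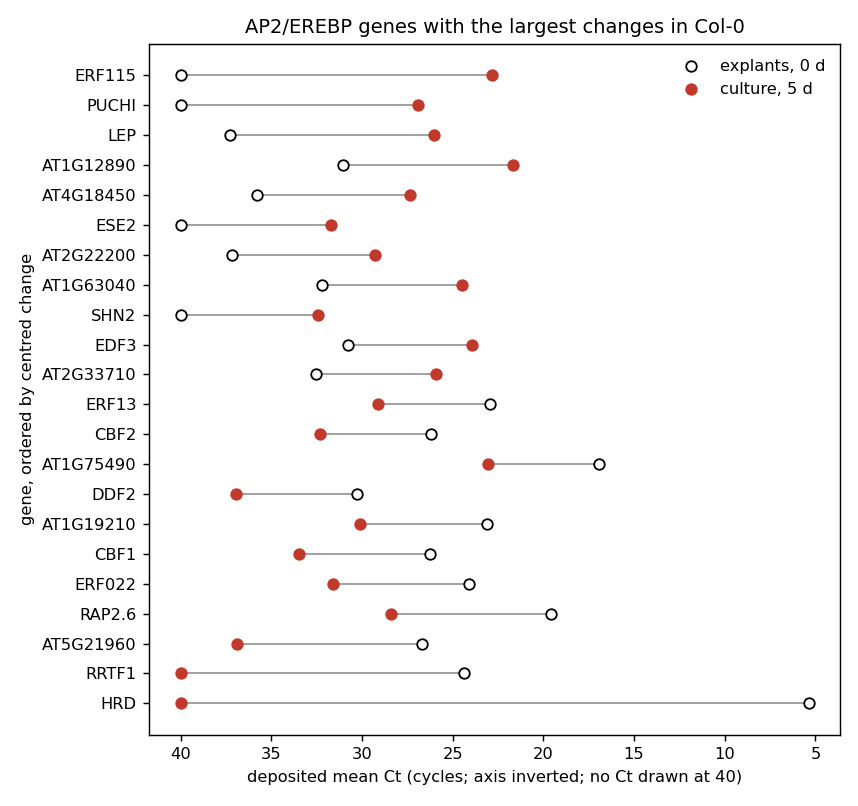
Open circles give the deposited mean Ct in explants and filled circles that at 5 d (x axis in cycles, inverted, a missing Ct drawn at 40) for the AP2/EREBP genes with the largest rises and falls, ordered by centred change (y axis). ERF115 goes from no Ct to 22.81 and RRTF1 from 24.39 to a Ct of 40, and the HRD value of 5.36 lies far outside the range of all other genes.

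The genes of the 4 DREB lists were mostly lower at 5 d. These lists do not cover the whole branch, and their counts hold for the listed genes only. The WIND genes, described below, stand in a list of their own. Other DREB genes, among them AT2G22200 with its rise given above, are in no list. The 4 lists held 40 kept genes, of which 24 were at least 2-fold lower and 6 at least 2-fold higher. Their median was -2.51, and among all kept rows 28.7% were lower and 33.2% higher. At least 10-fold, 16 were lower and 1 was higher. The counts of lower genes include HRD, whose change is not a usable size. With no centring the 2-fold counts were 22 lower and 10 higher. Over the 24 kept members for which the annotation gives a name they were 17 lower and 3 higher. In tanmei at 5 d, against its own explants, 23 of 40 kept genes of these lists were at least 2-fold lower and 7 higher. The share over all rows was not computed for tanmei, so no excess can be read from this count.

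All 5 listed CBF/DREB1 genes, activators of cold-responsive transcription, were at least 2-fold lower, beside 28.7% of all kept rows. A further member of the list as first written has a code after AT5G25190 and was left out. CBF1 went from a Ct of 26.25 to 33.45 (-7.99), CBF2 from 26.17 to 32.33 (-6.95) and CBF3 from 28.90 to 30.80 (-2.69). The related DDF1 and DDF2, which lower gibberellin levels when overexpressed, changed by -5.31 and -7.48. At 10 d, measured against the same explants, CBF2 was at -1.94 and CBF3 at 1.03, and CBF1 at -4.76, while DDF1 and DDF2 were at -6.38 and -7.15. The 3 CBF genes were thus nearer to explant level at 10 d than at 5 d, and the DDF genes remained more than 10-fold below it.

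In the list of ABI4 and DREB2 genes, 6 of 8 kept members were at least 2-fold lower (75%, beside 28.7% of all kept rows). DREB2A, a main activator of drought and heat responses, went from 21.69 to 26.43 (-5.53) and was at 21.87 at 10 d. The lowest in this list was AT1G75490, from 16.92 to 23.08 (-6.95). ABI4, an abscisic acid and sugar response factor of seeds, was at 22.33 and 21.60 (-0.06). DREB2C was the only member at least 2-fold higher, from 25.94 to 23.61 (1.54).

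DREB group II had 8 of 13 members at least 2-fold lower (61.5%, beside 28.7% of all kept rows), with a median of -2.95. ORA47, a jasmonate-responsive activator, went from 23.65 to 28.57 (-5.71), RAP2.10 from 21.07 to 24.67 (-4.39) and RAP2.1, a repressor in cold and drought responses, from 22.33 to 25.31 (-3.77). CEJ1, also called DEAR1, moved the other way, from 32.31 to 28.64 (2.88). The remaining DREB group III genes did not share a direction, with 5 of 14 at least 2-fold lower (35.7%), 3 higher (21.4%) and a median of 0.07. Among all kept rows 28.7% were lower and 33.2% higher. HRD is counted among the lower ones.

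The AP2-type and RAV genes were mostly higher. Of 17 kept members in 4 lists, 11 were at least 2-fold higher and 2 at least 2-fold lower (64.7% and 11.8%, beside 33.2% and 28.7% of all kept rows), with a median of 1.06. Several lay close to the 2-fold line, and with plate 1 centred on its other families alone the counts were 7 and 3. PLT1 and PLT2, which pattern the root stem cell niche in response to auxin, went from 25.67 to 21.30 (3.57, or 11.9-fold) and from 26.51 to 22.83 (2.89, or 7.42-fold). Their changes in tanmei were 3.38 and 3.62. AT1G72570 went from 27.64 to 23.13 (3.72) in Col-0 and from 27.42 to 28.53 (-0.63) in tanmei, a difference between genotypes that could not be tested. AIL6 changed by 1.06 and ANT, a promoter of organ growth, by 0.65. BBM, an inducer of somatic embryos when overexpressed, had a Ct of 33.44 in the explants and 32.39 at 5 d (0.26).

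Among the RAV genes, RAV1 went from 29.66 to 25.43 (3.44), and TEM2 and TEM1, repressors of flowering, changed by 1.10 and 0.22. In the APETALA2 group, AP2 and RAP2.7 changed by 1.23 and 1.16. SNZ, a floral repressor targeted by miR172 like these, went from 23.49 to 28.75 (-6.06). WRI1, the activator of seed oil synthesis, went from 19.65 to 20.52 (-1.66), while its relatives ADAP and WRI4 both lay at the 2-fold line, WRI4 at 1.06. Without centring the change of WRI1 was -0.87 and no longer past 2-fold.

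The ERF branch was divided by group. Of 39 kept members in its lists, 15 were at least 2-fold higher and 17 at least 2-fold lower, or 38.5% and 43.6% beside 33.2% and 28.7% of all kept rows. The share of rises was thus near that of all rows, and with no centring the counts were 17 and 10. All members of group VIIIb, the organ initiation genes, had positive changes. PUCHI and LEP were kept only through their Ct at 5 d, so the filter set their direction. The direction was free for DRNL and DRN alone, and DRN lay within 2-fold. Beside PUCHI and LEP, DRNL changed by 2.09 and DRN, which acts with it in cotyledon formation and shoot regeneration, by 0.92. Group VIIIa, repressors with an EAR motif, had 5 of 7 members at least 2-fold lower (71.4%) and none higher. Those lower all had an explant Ct below 26, a range where most AP2/EREBP rows were lower. ERF8 went from 22.45 to 24.66 (-3.01), ERF11 from 25.71 to 27.54 (-2.63) and ERF4 from 18.90 to 20.13 (-2.03). ERF7 and ERF12, at -1.05 and -1.24, were within 2-fold without centring.

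Group VII, whose proteins are stabilized when oxygen is low, had 3 of 5 members at least 2-fold lower (60%), of which RAP2.12 (-0.76) and HRE1 (-0.99) were within 2-fold without centring. Among all kept rows 28.7% were lower and 33.2% higher. All members had an explant Ct below 26. Of all AP2/EREBP rows below 22, 73.9% were lower, and of those between 22 and 26, 53.2%. The share of falls in group VII was thus near that of such rows. HRE2 went from 22.34 to 24.08 (-2.53) and was at 20.28 at 10 d, whereas RAP2.12 went from 19.99 to 20.75 (-1.55) and was at 20.84 at 10 d. The listed cytokinin response factors split, with 4 of 7 at least 2-fold higher (57.1%) and 3 lower (42.9%). Further genes annotated as such factors stand in no list, and those kept had negative changes, between -1.69 and -0.41. CRF4 went from 28.43 to 25.22 (2.42), CRF5 from 28.31 to 25.06 (2.46) and CRF2 from 24.91 to 22.32 (1.80). CRF7 went from 22.53 to 24.55 (-2.81), and CRF6 and CRF8, at -1.16 and -1.32, were within 2-fold without centring.

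In group IX, which holds the ethylene and jasmonate integrators, 4 of 10 kept members were at least 2-fold higher and 4 lower. That made 40% each way, beside 33.2% and 28.7% of all kept rows. ERF1 and ORA59, which activate defence genes, changed by 1.77 and 2.44. ERF1A and ERF6 changed by -3.11 and -1.41. ESE1 had a Ct of 34.89 in the explants and 40 at 5 d, a fall close to the limit of detection. TDR1 had a Ct of 40 in the explants and 34.42 at 5 d, also close to that limit. In group X, RAP2.6L, linked to shoot regeneration and wound repair, went from 22.04 to 19.22 (2.03), opposite in direction to RAP2.6. In the WIND list, WIND1, a wound-induced promoter of callus formation of the DREB branch, was at 20.88 and 19.95 (0.14). The other members, AT1G36060 and AT1G22190, changed by 2.31 and -1.41, the latter within 2-fold without centring.

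**Figure D4:**
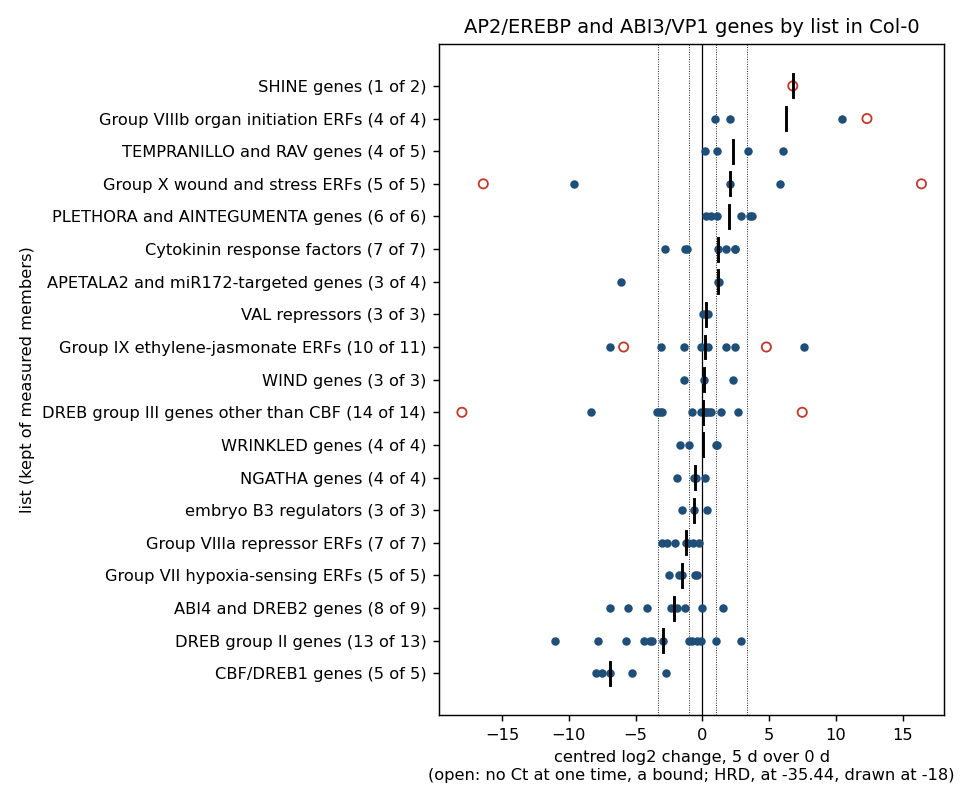
Each point is the centred log2 change (5 d over 0 d, x axis) of 1 kept gene in 19 lists of AP2/EREBP and ABI3/VP1 genes (y axis, with kept and measured members), black bars are list medians, and dotted lines mark 2-fold and 10-fold. Open points are bounds, for a gene with no Ct below 40 at 0 d or at 5 d. All 5 listed CBF/DREB1 genes lie between -7.99 and -2.69, and the 4 group VIIIb genes between 0.92 and 12.31.

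The ABI3/VP1 family had a narrower spread than AP2/EREBP, with quartiles at -0.66 and 0.28 beside -2.66 and 1.83. All 13 of its rows were kept, with changes from -1.92 to 1.49. Of these, 9 lay within 2-fold, beside 634 of the 1661 kept rows of all families. The B3 regulators of embryo maturation all had a Ct below 30 in the explants, which are labelled immature zygotic embryos, and at 5 d. ABI3, a mediator of abscisic acid responses in seeds, had a Ct of 18.08 at 0 d, 18.80 at 5 d and 19.56 at 10 d, so that it fell by 1.51 at 5 d and by 2.93 at 10 d. Without centring the 5 d change was -0.72. FUS3 had Ct values of 20.09, 19.96 and 21.08, with changes of -0.66 and -2.44. LEC2, an inducer of somatic embryos and of auxin synthesis, was at 28.86, 27.74 and 27.24, with changes of 0.33 and 0.18. In tanmei the same genes changed at 5 d by -5.91 (ABI3), -7.08 (FUS3) and -5.26 (LEC2). Its Ct values at 5 d were 25.67 for ABI3 and 25.84 for FUS3, and that of LEC2 was 32.59. At 5 d FUS3 and LEC2 were thus within 2-fold of explant level in Col-0 and ABI3 was 2.86-fold lower, while all 3 were more than 10-fold lower in tanmei, each from a single deposited mean.

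VAL1, VAL2 and VAL3, repressors of the embryo programme in seedlings, changed by 0.05, 0.38 and 0.28. Without centring VAL2 and VAL3 were at 1.18 and 1.07. Of the NGATHA genes, regulators of leaf and style growth, NGA2 went from 24.84 to 25.97 (-1.92), and NGA1, NGA3 and NGA4 changed by 0.17, -0.61 and -0.51.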

How the data were processed

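Total RNA of 6 groups was assayed by the authors with SYBR Green quantitative RT-PCR, and per the file headers the deposited values are Ct values, here 1 mean per gene and group; the other deposited unit, fold changes of the authors' own comparisons, was not used. The study describes 3 biological replicates per group, whose single values were not analysed here. A PCR table has no sequencing depth, and Ct values near 35 to 40 are the least precise. The change was computed as given in the results with Python 3.11.15 (numpy 2.4.6, pandas 2.3.3) and tested on simulated data. The Ct values are not normalized to a reference gene, and the plate median stands in for one. The plate blocks follow the row order. Rows were called at 2-fold and 10-fold, with no test.

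The members and gene lists were chosen with earlier results of these data known. Named genes were the list members and the 12 largest rises and 12 largest falls of AP2/EREBP and ABI3/VP1. The lists as first written held 135 codes. After values had been seen, 20 codes after AT5G25190 and 1 code in no row of either family were left out, which left 114, and 109 were kept by the Ct filter. The reason was a check of row identity against Ct-derived profiles listed elsewhere for the same codes. In it, 64 of 64 checked codes up to AT5G25190 lay within 2 cycles and 0 of 9 later codes did. The limit at AT5G25190 was itself taken from this check, as the last code that passed, so the 0 of 9 follows from that choice. Rows linked by profile carried the same family label in 128 of 151 cases for the 9 large families and in 29 of 98 for the others, so the smaller families are not described. Among the large families the match was uneven, from 38 of 39 rows for AP2/EREBP to 6 of 10 for bZIP. It was 11 of 15 for NAC, 10 of 14 for MYB and 15 of 19 for C2H2, so part of the rows counted there may belong to other families. Names came from RefSeq or the study, and 89 of the 114 list members had one.

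Alternatives were the centring, the Ct filter, the value for an empty Ct, repeated codes and the list membership. No per-sample column was left unused.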

Additional observations from a re-analysis of the deposited data

Results flagged for a closer look

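Of the 111 named genes kept in both genotypes, 4 were past 2-fold in opposite directions at 5 d in Col-0 and in tanmei, each set against its own explants. With 1 deposited mean per group, none of these differences could be tested. TDR1 changed by at least 4.79 in Col-0 (no Ct below 40 in the explants, 34.42 at 5 d) and by -5.58 in tanmei (28.54 to 34.60), so that the 5 d values lay close together and the explants differed. ERF1 changed by 1.77 in Col-0 (31.27 to 28.71) and by -1.53 in tanmei (24.94 to 26.95). DREB2C changed by 1.54 (25.94 to 23.61) and by -2.15 (23.00 to 25.62). AT3G60490 changed by 1.36 (29.97 to 27.82) and by -1.92 (24.27 to 26.67). In all 4 genes the explant Ct was lower in tanmei than in Col-0.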

How the results depend on the processing

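No paired analysis was possible because each group has a single deposited mean. Of the counts, those over all rows kept within 1.5 times of the reported value except under stricter Ct filters. With a Ct below 35 at both times, 151 rows were at least 10-fold higher and 72 at least 10-fold lower, and 11 AP2/EREBP rows were at least 10-fold higher. With a Ct below 30 at 0 d or 5 d, 75 rows were at least 10-fold lower. The first of these filters removes by construction the genes gained or lost from detection, and for the second the cause was not tested. With no centring, 10 DREB genes were at least 2-fold higher, 1 AP2-type or RAV gene was lower, and 10 ERF genes were lower, or 11 with 1 median over all plates. The share of higher genes among 2-fold calls then moved from 46.9% to 63.0% for the ERF lists (60.7% with 1 median), from 20.0% to 31.3% for the DREB lists and from 45.6% to 58.0% for AP2/EREBP. The median of all kept rows was 0.18 without centring. Alternatives chosen after seeing the data gave 7 AP2-type and RAV genes at least 2-fold higher with plate 1 centred on its other families (70.0% of 2-fold calls, against 84.6%), and 3 DREB genes higher among members with a name. No named gene past 2-fold changed sign under any alternative run. All named genes lay on plate 1, and dropping its median moved each by 0.79, less than 2-fold. Centring on 1 median over all plates moved them by less. These alternatives therefore could not have changed the sign of a gene past 2-fold. Of 868 values of named genes, 33 dropped below 2-fold and 23 passed it.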
